A study of Mus musculus with 17 samples.

Results

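The genes described here are 36 mouse genes of the unfolded protein response and of the amino acid response that shares its factor ATF4. They were chosen by name as chaperones and folding enzymes of the endoplasmic reticulum (ER, 14 genes), stress sensors and transcription factors (8), genes of ER-associated degradation (8) and enzymes of amino acid and one-carbon synthesis (6). The stress target genes Trib3 and Chac1, which encode neither sensors nor transcription factors, are counted with the sensors and transcription factors. All 36 had an array feature that names 1 gene and were among the 19938 genes measured. Their expression was measured in sorted CD11b+ spleen cells of female BALB/c mice on 17 Affymetrix Mouse Gene 1.0 ST arrays. The study asked what makes myeloid-derived suppressor cells more suppressive as a tumour grows.

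Monocytic cells, called Mo here, were sorted as Ly-6C high and Ly-6G low, and polymorphonuclear cells, called PMN, as Ly-6C low and Ly-6G high. Each subset came from naive mice, which had received no tumour cells, and from mice 3 or 6 weeks after Her-2/CT26 tumour cells were injected under the skin. There were 3 Mo arrays at each stage, and 4 naive, 2 3-week and 2 6-week PMN arrays. Spleens were pooled, no age is given, and the labels do not say whether numbered replicates came from separate pools, so the p-values stand for array-to-array spread alone, and that spread may be technical. The cells are defined by the same gates in all stages, and in naive mice these gates are taken to hold ordinary monocytes and neutrophils. Markers of other cells, such as B cell markers in naive PMN arrays, were also measured and are given below. In bulk samples such as these, fewer cells of a type and less RNA per cell cannot be told apart.

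Proteins that enter the secretory pathway fold in the ER with the help of chaperones, and proteins that fail to fold are passed back to the cytosol and degraded. When folding lags, the membrane sensors IRE1, PERK and ATF6 raise the production of chaperones and degradation genes, in part through the transcription factor XBP1. PERK also phosphorylates the initiation factor eIF2, which slows most translation while it favours that of ATF4, and lack of amino acids does the same through the kinase GCN2. ATF4 then induces genes of amino acid uptake and synthesis and, under lasting stress, genes such as Ddit3, Trib3 and Chac1. Monocytes and early granulocytes make large amounts of granule and secreted protein, for which the ER machinery is needed.

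Promoters of such genes are known to carry short response elements, and sequences are shown so that the genes with each element can be set beside their changes below. RefSeq windows of GRCm38.p6, 250 bases before to 50 after the start site, were found for 32 of the 36 genes. The windows were searched on both strands for the ER stress response element (CCAAT and CCACG, 9 bases apart), for ERSE-II (ATTGG and CCACG, 1 base apart), for the UPR element TGACGTGG and for the C/EBP-ATF element TGATGNAA. The ER stress response element lay in 9 of the 32 genes, against 37 of all 27025 genes with a window (0.137%; 0.119% of 32851 windows). ERSE-II lay in Dnajb11 and Herpud1, against 12 of all genes (0.0444%; 0.0365% of windows). The C/EBP-ATF element lay in Asns, Chac1, Herpud1 and Trib3, against 1219 of all genes (4.51%; 3.97% of windows). The UPR element was in 0 of the 32 genes, against 0.714% of all genes (0.676% of windows). A match is a description of letters and not a site of binding.

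The 250 bases before the start site are printed for 4 genes, from 5′ to 3′ on the strand of the gene, with each match in capitals, the bases between its parts included. Hspa5 stands for the ER stress response element, Hsp90b1 holds 2 of them (1 on each strand), Asns holds the C/EBP-ATF element and had the largest change of all members, and Herpud1 holds ERSE-II and the C/EBP-ATF element.
Hspa5 (chr2:34771840-34772089, + strand): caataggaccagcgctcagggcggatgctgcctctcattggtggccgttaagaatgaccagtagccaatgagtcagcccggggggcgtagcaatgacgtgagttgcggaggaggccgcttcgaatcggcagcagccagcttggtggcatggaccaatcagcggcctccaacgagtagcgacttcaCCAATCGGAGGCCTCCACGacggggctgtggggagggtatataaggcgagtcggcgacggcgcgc
Hsp90b1 (chr10:86705445-86705694, - strand): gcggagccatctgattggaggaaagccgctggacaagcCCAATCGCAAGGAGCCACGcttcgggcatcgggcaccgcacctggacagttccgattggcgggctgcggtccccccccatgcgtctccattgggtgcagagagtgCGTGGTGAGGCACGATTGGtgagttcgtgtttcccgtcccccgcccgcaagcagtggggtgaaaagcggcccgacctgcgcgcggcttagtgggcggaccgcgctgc
Asns (chr6:7693210-7693459, - strand): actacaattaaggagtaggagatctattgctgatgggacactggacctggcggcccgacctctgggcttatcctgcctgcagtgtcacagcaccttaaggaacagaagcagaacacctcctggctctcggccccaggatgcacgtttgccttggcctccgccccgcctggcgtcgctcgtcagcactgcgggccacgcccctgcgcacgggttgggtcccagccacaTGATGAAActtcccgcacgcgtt
Herpud1 (chr8:94386179-94386428, + strand): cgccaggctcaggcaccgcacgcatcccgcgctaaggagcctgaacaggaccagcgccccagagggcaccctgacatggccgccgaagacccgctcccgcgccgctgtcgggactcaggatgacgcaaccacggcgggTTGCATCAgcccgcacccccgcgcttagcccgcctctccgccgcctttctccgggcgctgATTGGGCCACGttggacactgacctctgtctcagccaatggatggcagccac

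The other matches to the ER stress response element, to ERSE-II and to the C/EBP-ATF element are short, and are printed 5′ to 3′ on the strand on which the motif reads. Capitals mark the letters that were searched for, with N counted as one.
Chac1, C/EBP-ATF element (chr2:119351049-119351056): TGATGCAA
Trib3, C/EBP-ATF element (chr2:152344039-152344046): TGATGTAA
Calr, ER stress response element (chr8:84847075-84847093): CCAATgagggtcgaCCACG
Canx, ER stress response element (chr11:50325800-50325818): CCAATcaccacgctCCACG
Creld2, ER stress response element (chr15:88819520-88819538): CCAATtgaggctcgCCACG
Derl3, ER stress response element (chr10:75893242-75893260): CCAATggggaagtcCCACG
Dnajc3, ER stress response element (chr14:118937827-118937845): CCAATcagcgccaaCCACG
Pdia6, ER stress response element (chr12:17266491-17266509): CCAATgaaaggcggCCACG
Syvn1, ER stress response element (chr19:6046532-6046550): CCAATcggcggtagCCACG
Dnajb11, ERSE-II (chr16:22857852-22857862): ATTGGcCCACG

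The values are log2 intensities. The subsets appear to have been normalized apart, so the level in Mo is not set against the level in PMN. The sorting was checked here by Ly6g and Ccr2 alone, with the range in each subset given for itself. Some monocyte markers changed in Mo at 6 weeks and are given below. Ly6g lay between 5.70 and 8.95 in Mo and between 10.21 and 12.97 in PMN arrays, and Ccr2, a receptor of monocytes, between 12.06 and 12.45 in Mo and between 6.07 and 6.78 in PMN. The highest Ly6g level in Mo was that of a 6-week array. Median intensity per array was 95.3 to 114 for Mo and 81.0 to 95.9 for PMN. The 3-week Mo replicate 1 stood apart, being the lowest of its group at 30 of the 36 genes. A gene is said to rise or fall where its adjusted p, from limma with Benjamini-Hochberg adjustment over all 19938 genes, was below 0.05, and changes are given as log2 differences ± SE.

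At 6 weeks most of the 36 genes were higher than in naive mice in Mo cells, where 22 rose (background 21.8% of all genes) and 2 fell (background 24.4%). In PMN cells 16 rose (background 25.5%) and 3 fell (background 40.0%). The median change of the 36 genes was 0.42 in Mo, against -0.09 over all genes, and 0.25 in PMN, against -0.18. Many genes drifted down at 6 weeks. Genes of odorant and pheromone receptors, 1194 in number and foreign to leukocytes, had a median change of -0.33 in Mo and -0.36 in PMN, so small falls of dim genes lie near that drift. Centring each array on its median moved the all-gene median to 0.09 in Mo and 0.01 in PMN. The split of members was then 25 higher (background 29.1%) and 0 lower (6.92%) in Mo and 19 (28.9%) and 1 (17.6%) in PMN. After quantile normalization over all arrays it was 14 (17.5%) and 3 (8.80%) in Mo and 11 (24.7%) and 6 (27.7%) in PMN. Without Mo 6-week replicate 3, the Mo split was 13 higher (14.4%) and 0 lower (8.05%). On the same 6-week arrays all 15 cell division genes of a marker list rose (median 3.11 in Mo and 2.22 in PMN), and their part in the changes of the 36 genes was not tested.

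**Figure D1:**
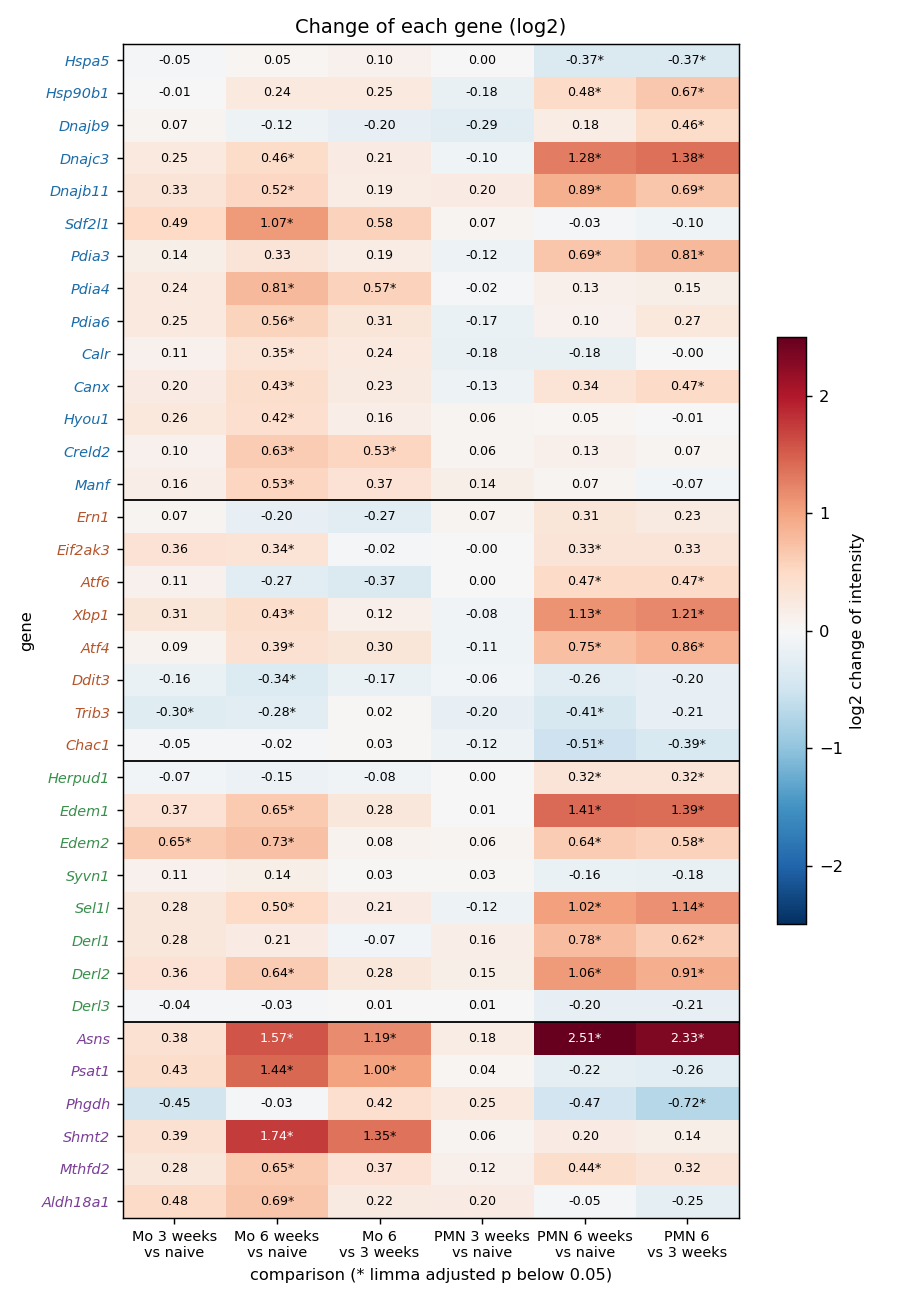
Log2 change of intensity of each of the 36 genes (rows, grouped by role with horizontal lines) in 6 comparisons (columns), with the value in each cell and an asterisk where the limma adjusted p was below 0.05. Changes at 6 weeks are the strongest, up to 1.74 in Mo and 2.51 in PMN, and the PMN 3-week column holds no asterisk.

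Of the 6 enzymes of amino acid and one-carbon synthesis, 5 rose in Mo at 6 weeks (background 21.8%) and 2 rose in PMN (25.5%). In either subset 0 fell (24.4% and 40.0%). The rises included the largest changes of all members. After joint quantile normalization the PMN split was 2 higher and 1 lower. Asns, which makes asparagine, rose in both subsets. Its log2 intensity in Mo was 7.26, 7.13 and 7.06 in naive, 7.43, 7.72 and 7.42 at 3 weeks and 8.40, 8.99 and 8.77 at 6 weeks. In PMN it was 6.77, 6.61, 6.81 and 6.77 in naive, 6.84 and 7.0 at 3 weeks and 9.41 and 9.10 at 6 weeks. Every 6-week array lay above all arrays of its subset at the earlier stages. The change from naive to 6 weeks was 1.57 ± 0.13 in Mo (2.96-fold, adjusted p = 4.78e-07) and 2.51 ± 0.14 in PMN (5.69-fold, adjusted p = 4.82e-09). The change was smaller in Mo by 0.94 ± 0.20 (adjusted p = 0.00308 for the difference of the changes). In naive PMN the mean of Asns, 6.74, lay below 7.06, the 95th percentile of the odorant and pheromone receptor genes in PMN, so the PMN rise is a lower bound. Counted from 7.06, Asns was at least 4.58-fold higher at 6 weeks, and the difference of the changes was then -0.63, a value without a test.

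Shmt2 and Psat1 rose in Mo, and in PMN their change did not pass. Shmt2, the mitochondrial enzyme that takes a one-carbon unit from serine, lay at 7.48, 7.11 and 7.13 in naive Mo, 7.21, 7.69 and 7.99 at 3 weeks and 8.38, 8.98 and 9.58 at 6 weeks. Its change was 1.74 ± 0.23 (3.33-fold, adjusted p = 4.92e-05). Psat1, a transaminase of serine synthesis, lay at 7.58, 7.25 and 7.46 in naive Mo, 7.67, 7.97 and 7.95 at 3 weeks and 8.43, 8.76 and 9.42 at 6 weeks. Its change was 1.44 ± 0.19 (2.71-fold, adjusted p = 3.82e-05). For both genes the 6-week Mo arrays lay above all other Mo arrays, and replicate 3 was the highest.

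In PMN, Shmt2 lay between 6.39 and 6.79 in naive, at 6.79 and 6.54 at 3 weeks and at 6.72 and 6.88 at 6 weeks (change 0.20 ± 0.25, adjusted p = 0.485). Psat1 lay between 6.46 and 6.90 in naive PMN, at 6.59 and 6.86 at 3 weeks and at 6.57 and 6.37 at 6 weeks (change -0.22 ± 0.20, adjusted p = 0.332). These PMN levels overlapped, and in PMN both genes lay below 7.06, the same percentile of the receptor genes. The changes differed between the subsets by 1.54 ± 0.34 for Shmt2 (adjusted p = 0.00471) and by 1.66 ± 0.27 for Psat1 (adjusted p = 0.000515).

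Aldh18a1, which makes the precursor of proline, rose in Mo by 0.69 ± 0.15 (adjusted p = 0.00196). Its levels were 7.17, 7.51 and 7.51 in naive and 7.94, 7.95 and 8.39 at 6 weeks, without overlap. In PMN, where it also lay below 7.06 on average, the change was -0.05 ± 0.15 (adjusted p = 0.781), and the changes differed by 0.75 ± 0.21 (adjusted p = 0.0219). Mthfd2, the mitochondrial folate enzyme that acts after Shmt2, rose by 0.65 ± 0.16 in Mo (adjusted p = 0.00563) and by 0.44 ± 0.17 in PMN (adjusted p = 0.0337). Its naive PMN mean of 6.98 also lay below 7.06. Leaving out a 3-week or 6-week PMN array, here and in what follows, leaves that stage with 1 array, which is then assumed to vary like the other groups. The PMN call ended without any 1 of 5 arrays (6-week replicate 1 or 2, naive replicate 1, 3 or 4; adjusted p from 0.055 to 0.14) and with values under 64 raised to 64, called the floor below (0.0771). Phgdh, the first enzyme of serine synthesis, did not pass at 6 weeks against naive in either subset (-0.03 ± 0.20 in Mo and -0.47 ± 0.22 in PMN). A feature shared with other genes also carries its name and was not used. For Aldh18a1 the difference of the changes kept its size with centred arrays but did not pass (0.74, adjusted p = 0.0802), and was at 0.49 with joint quantiles (adjusted p = 0.0987). It also did not pass without Mo 6-week replicate 3, Mo naive replicate 1 or PMN 6-week replicate 1 or 2 (adjusted p from 0.054 to 0.0904).

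**Figure D2:**
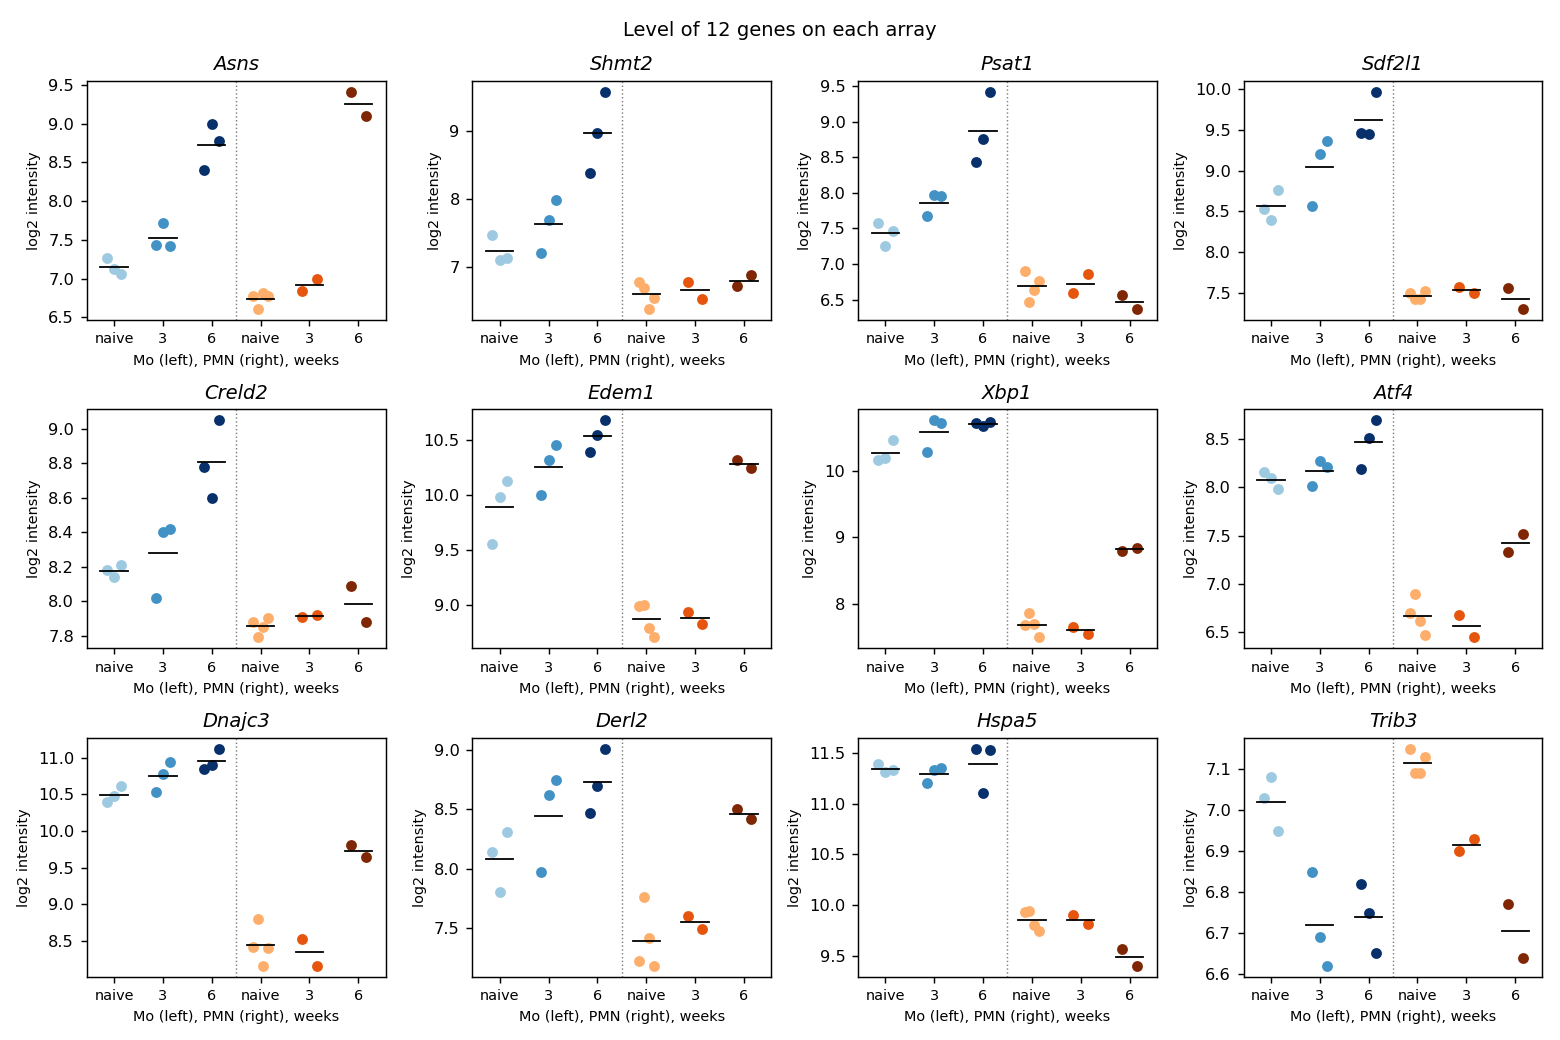
Log2 intensity of 12 of the 36 genes on each of the 17 arrays (points) by stage, Mo left and PMN right of the dotted line, with group means as bars; the y axes do not start at 0 and differ between genes. Asns is highest on the 6-week arrays of both subsets, between 8.40 and 8.99 in Mo and at 9.41 and 9.10 in PMN, while Shmt2 and Psat1 are so in Mo.

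Among the 8 genes of ER-associated degradation, 4 rose in Mo at 6 weeks (background 21.8%) and 6 in PMN (25.5%). In either subset 0 fell (24.4% and 40.0%). After joint quantile normalization the splits were 3 and 1 in Mo and 5 and 1 in PMN. Edem1, a lectin-like protein that pulls misfolded glycoproteins out of the folding cycle, lay at 9.56, 9.98 and 10.13 in naive Mo, 10, 10.32 and 10.46 at 3 weeks and 10.39, 10.55 and 10.68 at 6 weeks. In PMN it lay at 8.99, 9.0, 8.79 and 8.71 in naive, 8.94 and 8.83 at 3 weeks and 10.32 and 10.25 at 6 weeks. In both subsets the 6-week and naive arrays did not overlap, and in Mo the 3-week arrays lay across both. The change was 0.65 ± 0.14 in Mo (adjusted p = 0.00278) and 1.41 ± 0.15 in PMN (2.65-fold, adjusted p = 1.37e-06), and it was smaller in Mo by 0.76 ± 0.21 (adjusted p = 0.0179).

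Sel1l, the partner of the ligase that Syvn1 encodes, lay at 9.27, 9.46 and 9.46 in naive and 9.74, 9.94 and 10 in 6-week Mo arrays. In PMN it lay at 8.24, 8.17, 8.13 and 8.03 in naive and 9.16 and 9.17 at 6 weeks. Both rises left the groups apart, at 0.50 ± 0.11 in Mo (adjusted p = 0.00285) and 1.02 ± 0.12 in PMN (adjusted p = 2.44e-06), and the difference was -0.53 ± 0.16 (adjusted p = 0.0309). Derl2, a membrane protein of the exit channel, rose by 0.64 ± 0.20 in Mo (adjusted p = 0.0163) and 1.06 ± 0.21 in PMN (adjusted p = 0.000449). Its relative Derl1 rose in PMN by 0.78 ± 0.17 (adjusted p = 0.00119) and was at 0.21 ± 0.16 in Mo (adjusted p = 0.281). Edem2, which trims mannose from the bound glycan, rose by 0.73 ± 0.14 in Mo (adjusted p = 0.000909) and 0.64 ± 0.15 in PMN (adjusted p = 0.00143).

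Herpud1, a membrane protein of the same complex, rose in PMN by 0.32 ± 0.10 (adjusted p = 0.0107) but was at -0.09 after joint quantile normalization (adjusted p = 0.394). In Mo it was at -0.15 ± 0.09 (adjusted p = 0.183), and the changes differed by -0.47 ± 0.14 (adjusted p = 0.0239). Syvn1 and Derl3 did not pass in either subset, with changes of 0.14 and -0.03 in Mo and -0.16 and -0.20 in PMN.

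The Mo call of Derl2 ended without naive replicate 2 (adjusted p = 0.0831) or 6-week replicate 3 (0.0891), after joint quantile normalization (0.0867) and with Mo fitted alone (0.0515). The PMN call of Herpud1 ended without 6-week replicate 2 (0.0825). Of the differences between subsets, those of Edem1 (-0.77, adjusted p = 0.0675), Sel1l (-0.54, 0.107) and Herpud1 (-0.48, 0.0756) kept their size but did not pass after median centring. After joint quantile normalization those of Sel1l (-0.33, 0.0801) and Herpud1 (-0.21, 0.242) did not pass. Left-out arrays ended the difference of Edem1 in 3 of 12 cases (PMN 6-week replicates 1 and 2 and Mo naive replicate 3; adjusted p from 0.0513 to 0.0802). They ended that of Herpud1 in 4 (both PMN 6-week arrays, Mo naive replicate 1 and Mo 6-week replicate 2; 0.0511 to 0.107). They ended that of Sel1l in 7 (both PMN 6-week arrays, PMN naive replicates 3 and 4, Mo naive replicates 2 and 3 and Mo 6-week replicate 1; 0.0521 to 0.106).

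Of the 8 genes listed as sensors and transcription factors, Trib3 and Chac1 included, 3 rose (background 21.8%) and 2 fell (24.4%) in Mo at 6 weeks. In PMN 4 rose (25.5%) and 2 fell (40.0%), so the falls lay near or under the share over all genes. The genes that fell were Ddit3 and Trib3 in Mo and Trib3 and Chac1 in PMN. After median centring the splits were 3 and 0 in Mo and 5 and 1 in PMN, and after joint quantile normalization 0 and 2 in Mo and 2 and 2 in PMN. Xbp1, whose spliced form drives degradation genes and chaperones, lay at 10.17, 10.20 and 10.46 in naive Mo, 10.28, 10.76 and 10.72 at 3 weeks and 10.72, 10.68 and 10.73 at 6 weeks. In PMN it lay at 7.68, 7.87, 7.70 and 7.50 in naive, 7.66 and 7.55 at 3 weeks and 8.80 and 8.84 at 6 weeks. The 6-week arrays lay above the naive ones in both subsets, and the array feature does not separate the spliced from the unspliced form. The change was 0.43 ± 0.12 in Mo (adjusted p = 0.0114) and 1.13 ± 0.13 in PMN (2.19-fold, adjusted p = 2.74e-06), and it was smaller in Mo by 0.70 ± 0.18 (adjusted p = 0.0124). Atf4 rose by 0.39 ± 0.13 in Mo (adjusted p = 0.0265) and by 0.75 ± 0.14 in PMN (adjusted p = 0.000315). In PMN its arrays lay at 6.70, 6.90, 6.62 and 6.47 in naive and at 7.33 and 7.52 at 6 weeks, so a dim gene reached a level above 7.06, the 95th percentile of the receptor genes.

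Atf6, the sensor that is cleaved in the Golgi, lay at 9.90, 9.99 and 10.16 in naive Mo and 9.77, 9.77 and 9.71 at 6 weeks, a change of -0.27 ± 0.12 that did not pass (adjusted p = 0.0765). In PMN it rose by 0.47 ± 0.13 (adjusted p = 0.00506), from levels between 7.71 and 8.10 to 8.39 and 8.34. The changes differed by -0.73 ± 0.18 (adjusted p = 0.00789), a difference that passed in all alternatives. Eif2ak3, the gene of PERK, rose by 0.34 ± 0.12 in Mo (adjusted p = 0.031) and by 0.33 ± 0.13 in PMN (adjusted p = 0.0323), and the PMN value was -0.08 after joint quantile normalization (adjusted p = 0.55). Ern1, the gene of IRE1, did not pass, at -0.20 ± 0.14 in Mo and 0.31 ± 0.15 in PMN (adjusted p = 0.225 and 0.0717). Settings moved Ern1 across the threshold. In Mo it was lower without naive replicate 1 (-0.42, adjusted p = 0.00792), with joint quantiles (-0.40, 0.0214) and with array weights (-0.28, 0.0171). In PMN it was higher with centred arrays (0.50, 0.0258), with PMN fitted alone (0.31, 0.00485) and with array weights (0.31, 0.0141). The Mo fall of Atf6 passed with joint quantiles (-0.44, 0.0109) and with array weights (-0.24, 0.0218).

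The target genes of lasting stress did not rise. Ddit3, which encodes the factor CHOP, fell in Mo by 0.34 ± 0.12 (adjusted p = 0.0313) and was at -0.26 ± 0.13 in PMN (adjusted p = 0.0787). Trib3, a pseudokinase that restrains ATF4, lay at 7.03, 7.08 and 6.95 in naive and 6.82, 6.75 and 6.65 in 6-week Mo arrays. In PMN it lay at 7.15, 7.09, 7.09 and 7.13 in naive, 6.90 and 6.93 at 3 weeks and 6.77 and 6.64 at 6 weeks, so naive and 6-week arrays did not overlap in either subset. It fell by 0.28 ± 0.08 in Mo (adjusted p = 0.0148) and fell by 0.41 ± 0.09 in PMN (adjusted p = 0.00102). Chac1, which degrades glutathione, was at -0.02 ± 0.12 in Mo and fell by 0.51 ± 0.13 in PMN (adjusted p = 0.00328). These falls are about as large as the median of the receptor genes, and over the PMN arrays all 3 genes averaged below 7.06. After median centring Ddit3 and Trib3 did not pass in Mo (-0.15 and -0.09), and Chac1 was at -0.32 in PMN (adjusted p = 0.0625). Trib3 still passed in PMN.

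In Mo the calls of Eif2ak3, Xbp1, Atf4, Ddit3 and Trib3 ended after joint quantile normalization (adjusted p from 0.0865 to 0.405), and all but Xbp1 did with Mo fitted alone (0.053 to 0.0604). Each also ended without single arrays. Xbp1 did without naive replicate 1 (0.054), and Trib3 without naive replicate 2 or 6-week replicate 3 (0.0606 to 0.0756). Eif2ak3, Atf4 and Ddit3 each did without 6-week replicate 2 and without 6-week replicate 3. They also did without a naive array, which was replicate 1 or 2 for Eif2ak3 (0.0778 to 0.122 over all 4 cases), 2 or 3 for Atf4 (0.0618 to 0.141) and 1 or 3 for Ddit3 (0.0674 to 0.135). In PMN the call of Eif2ak3 ended without either 6-week array and without naive replicate 3 or naive replicate 4 (0.0687 to 0.136) and with the floor (0.0509), and that of Chac1 without 6-week replicate 1 (0.118). Atf6 did not pass in PMN after joint quantile normalization (0.15, adjusted p = 0.345). The difference of Xbp1 kept its size but did not pass after median centring (-0.70, 0.0558) or without PMN 6-week replicate 2 (-0.68, 0.0591).

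Of the 14 chaperones and folding enzymes, 10 rose (background 21.8%) and 0 fell (24.4%) in Mo at 6 weeks. In PMN 4 rose (25.5%) and 1 fell (40.0%). The PMN split was 6 and 0 with centred arrays and 2 and 2 with joint quantiles. In Mo 6 rose after joint quantile normalization. Sdf2l1, a partner of the chaperone BiP, lay at 8.53, 8.39 and 8.76 in naive Mo, 8.56, 9.21 and 9.36 at 3 weeks and 9.47, 9.45 and 9.97 at 6 weeks. The 6-week arrays lay above all others, and 3-week replicate 1 lay among the naive arrays. It rose by 1.07 ± 0.17 (2.10-fold, adjusted p = 0.000284). In PMN it lay at 7.49, 7.42, 7.42 and 7.52 in naive and 7.55 and 7.30 at 6 weeks, a change of -0.03 ± 0.19 (adjusted p = 0.889), and the changes differed by 1.10 ± 0.26 (adjusted p = 0.00635). Creld2 and Manf, proteins of the ER that stressed cells secrete, rose in Mo by 0.63 ± 0.12 (adjusted p = 0.000813) and 0.53 ± 0.12 (adjusted p = 0.00285). In PMN they were at 0.13 ± 0.13 and 0.07 ± 0.12, and the differences of 0.51 (adjusted p = 0.0512) and 0.45 (adjusted p = 0.0801) did not pass.

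Hspa5, the gene of BiP and the standard marker of the response, did not rise in either subset. Its levels were 11.39, 11.31 and 11.33 in naive Mo, 11.20, 11.33 and 11.35 at 3 weeks and 11.54, 11.10 and 11.53 at 6 weeks. In PMN they were 9.93, 9.94, 9.80 and 9.74 in naive, 9.90 and 9.81 at 3 weeks and 9.57 and 9.40 at 6 weeks. The Mo groups overlapped (change 0.05 ± 0.11, adjusted p = 0.72), and the PMN 6-week arrays were the lowest of that subset (-0.37 ± 0.12, adjusted p = 0.0118). The PMN fall is close in size to the receptor gene median of -0.36, and the median over all genes was -0.18. The receptor genes lay at a median level of 5.29 in PMN, below that of Hspa5. The part of the drift in the fall of Hspa5 was not tested. The fall did not pass after median centring (-0.18, adjusted p = 0.274) and still passed after joint quantile normalization. Without 6-week replicate 2 it was at -0.29 and did not pass. Hsp90b1, the ER member of the Hsp90 family, rose in PMN by 0.48 ± 0.14 (adjusted p = 0.00749) and was at 0.24 ± 0.13 in Mo (adjusted p = 0.144).

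Of the 3 DnaJ cochaperones, 2 rose in both subsets, and for 1 the PMN rise was the larger by test. This was Dnajc3, which also restrains PERK. It lay at 10.39, 10.48 and 10.61 in naive and 10.84, 10.90 and 11.12 in 6-week Mo arrays. In PMN it lay at 8.42, 8.80, 8.16 and 8.40 in naive, 8.53 and 8.16 at 3 weeks and 9.81 and 9.64 at 6 weeks. The 6-week groups stood clear of the naive ones in both subsets. The change was 0.46 ± 0.15 in Mo (adjusted p = 0.0218) and 1.28 ± 0.16 in PMN (2.43-fold, adjusted p = 5.66e-06), and the difference was -0.82 ± 0.22 (adjusted p = 0.0144). Dnajb11, which binds substrates for BiP, rose by 0.52 ± 0.14 in Mo (adjusted p = 0.00836) and 0.89 ± 0.15 in PMN (adjusted p = 9.59e-05). That difference of -0.38 ± 0.20 did not pass (adjusted p = 0.24). Dnajb9, a cochaperone that represses IRE1, did not pass at 6 weeks against naive in either subset (-0.12 in Mo, 0.18 in PMN).

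Of the disulfide isomerases Pdia4 and Pdia6 rose in Mo and Pdia3 rose in PMN, and the difference between the subsets passed for Pdia4 and not for Pdia6 or Pdia3. Pdia4 rose in Mo by 0.81 ± 0.14 (adjusted p = 0.000451), from 9.38, 9.39 and 9.44 in naive to 10.22, 9.97 and 10.46 at 6 weeks, and was at 0.13 ± 0.15 in PMN, a difference of 0.68 ± 0.20 (adjusted p = 0.0281). A second feature of Pdia4 was dim, with a mean of 6.04 in naive and 5.66 in 6-week Mo arrays, and the mean of both features did not pass (0.21, adjusted p = 0.0951). Pdia6 rose in Mo by 0.56 ± 0.15 (adjusted p = 0.00849) and was at 0.10 ± 0.16 in PMN. Pdia3, which works with calreticulin and calnexin, rose in PMN by 0.69 ± 0.18 (adjusted p = 0.00356) and was at 0.33 ± 0.17 in Mo (adjusted p = 0.113). Calr and Canx, the genes of those lectin chaperones, rose in Mo by 0.35 ± 0.13 and 0.43 ± 0.14 (adjusted p = 0.0393 and 0.0228), and Hyou1, a nucleotide exchange factor of BiP, by 0.42 ± 0.13 (adjusted p = 0.0199). In PMN these 3 were at -0.18, 0.34 and 0.05 and did not pass, though Canx did with centred arrays (0.53, adjusted p = 0.0225).

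Several of the smaller Mo rises depended on single arrays. Without 6-week replicate 3, the calls of Dnajc3, Dnajb11, Pdia6, Calr, Canx and Hyou1 ended (adjusted p from 0.0505 to 0.185). Those of Dnajc3 and Canx also ended without naive replicate 1 or 2, that of Hyou1 without naive replicate 1, and that of Calr without 5 of the 6 arrays, 6-week replicate 2 being the exception. After joint quantile normalization Dnajc3, Calr, Canx and Hyou1 did not pass (0.13 to 0.27), and Calr and Hyou1 did not with Mo fitted alone (0.0727 and 0.0734). Calr also did not pass with array weights (0.0968) or the floor (0.067). In PMN the calls of Hsp90b1 (0.421) and Pdia3 (0.0908) ended after joint quantile normalization, and that of Hsp90b1 ended without 6-week replicate 1 (0.0639). Of the differences between subsets, that of Dnajc3 did not pass after median centring (-0.83, 0.0542) or without PMN 6-week replicate 1 (-0.74, 0.0845), and that of Sdf2l1 without PMN 6-week replicate 2 (0.98, 0.0506). That of Pdia4 ended without 6 of 12 arrays (Mo 6-week replicate 3, Mo naive replicates 1 and 2, both PMN 6-week arrays and PMN naive replicate 4; 0.0504 to 0.145). It also ended with centred arrays (0.68, 0.0825), with joint quantiles (0.57, 0.0739) and with the floor (0.0536).

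The change from naive to 6 weeks differed between the subsets for 12 of the 36 genes. It was more positive in Mo for 5 genes (background 6.47% of all genes), which were Sdf2l1, Pdia4, Psat1, Shmt2 and Aldh18a1, and more positive in PMN for 7 (background 11.0%), which were Dnajc3, Atf6, Xbp1, Herpud1, Edem1, Sel1l and Asns. Of the 11 genes that rose in both subsets, 5 rose more in PMN (Dnajc3, Xbp1, Edem1, Sel1l and Asns) and for 6 the difference did not pass. A further 11 rose in Mo and did not pass in PMN, and the difference itself passed for the 5 named first. With centred arrays the counts were 3 (background 3.70%) and 2 (7.64%), and with joint quantile normalization 8 (8.49%) and 7 (12.3%). They were 3 and 3 without PMN 6-week replicate 1, and 3 and 3 without replicate 2. The differences of Atf6, Asns, Psat1 and Shmt2 passed in all alternatives.

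**Figure D3:**
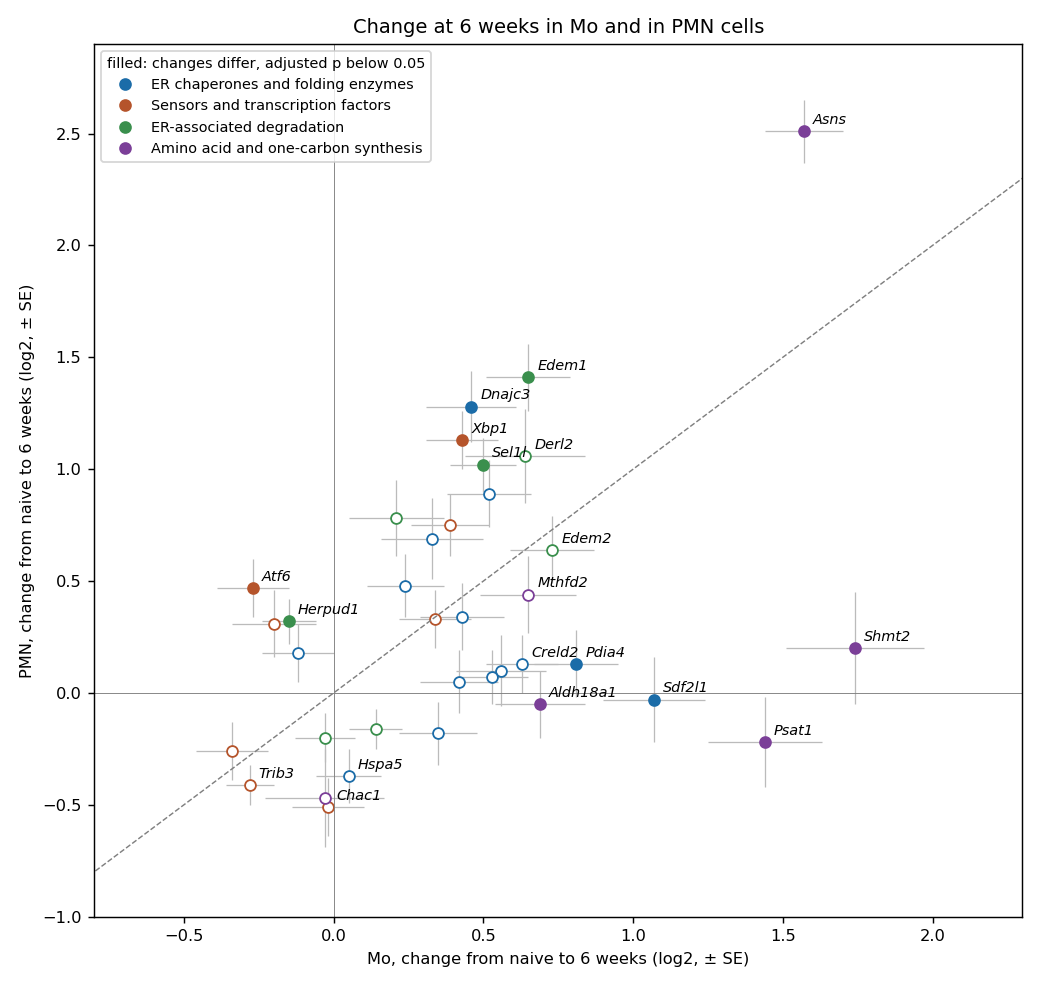
Change from naive to 6 weeks in Mo (x axis) against PMN (y axis), log2 ± SE, for the 36 genes coloured by role; filled points are those whose changes differ between the subsets at an adjusted p below 0.05, and the dashed line marks equal change. Shmt2, Psat1 and Sdf2l1 lie to the right near 0 in PMN (0.20, -0.22 and -0.03), while Edem1, Dnajc3 and Xbp1 lie above the line (1.41, 1.28 and 1.13 in PMN).

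At 3 weeks few members passed. In Mo, Edem2 rose by 0.65 ± 0.14 (adjusted p = 0.0222; 1 member higher, background 5.20%) and Trib3 fell by 0.30 ± 0.08 (adjusted p = 0.0476; 1 lower, background 0.833%). The median of the 36 genes was 0.22 against -0.05 over all genes. In PMN 0 of 36 members and 0 of all genes passed in limma (background 0%), with 2 members and 374 genes at an unadjusted p below 0.05, and the members' median was 0.01 against 0.01. The 3-week PMN arrays lay within or near the naive range, with Asns at 6.84 and 7.0 against 6.61 to 6.81 and Xbp1 at 7.66 and 7.55 against 7.50 to 7.87.

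The 3-week Mo count was larger without 3-week replicate 1. Without it, 15 members were higher (background 22.7%) and 2 lower (background 22.0%). The added genes were Sdf2l1 (0.73, adjusted p = 0.00211), Aldh18a1 and Shmt2 (0.60 each), Derl2 (0.60), Psat1 (0.53), Edem1 (0.50), Dnajb11 (0.49), Eif2ak3 and Xbp1 (0.46 each), Derl1 (0.45), Asns and Hyou1 (0.42 each), Sel1l (0.41), Pdia6 (0.39) and Phgdh (-0.60). The calls of Edem2 and Trib3 on all arrays ended without any of 4 arrays (naive replicates 1 and 2, 3-week replicates 2 and 3; adjusted p from 0.123 to 0.286), with the floor (0.0585 and 0.0535) and with Mo fitted alone (0.175 and 0.177). Trib3 did not pass after median centring (-0.16, 0.123) or joint quantile normalization (-0.16, 0.208) either. Centring added Aldh18a1 (0.62, 0.0491), which gave 2 members higher and 0 lower. There were 5 calls without naive replicate 3 (4 higher and 1 lower).

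Between 3 and 6 weeks, 5 members rose in Mo (background 4.38%) and 0 fell (background 3.13%). These were Shmt2 (1.35 ± 0.23, adjusted p = 0.000942), Asns (1.19 ± 0.13, adjusted p = 1.37e-05), Psat1 (1.00 ± 0.19, adjusted p = 0.00186), Pdia4 (0.57 ± 0.14, adjusted p = 0.0148) and Creld2 (0.53 ± 0.12, adjusted p = 0.0075). The 3 synthesis enzymes passed in all alternatives. For these 3, the 6-week arrays lay above all 3-week arrays. Without 3-week replicate 1 the call of Pdia4 ended (0.47, adjusted p = 0.0627), and without 6-week replicate 3 those of Pdia4 and Creld2 did (0.11 and 0.0587), which left 3; there were 8 without 6-week replicate 1. Pdia4 did not pass with the mean of its features (0.24, adjusted p = 0.231), and Creld2 did not with Mo fitted alone (0.0698). Joint quantile normalization gave 6 higher and 1 lower. The changes from naive to 3 weeks and from 3 to 6 weeks share the 3-week arrays, and for Edem2 they were 0.65 and 0.08, against 0.38 and 1.19 for Asns.

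In PMN 16 members rose between 3 and 6 weeks (background 23.7%) and 3 fell (background 34.9%). The comparison with naive shares the 6-week arrays, and the values were close to it: Asns was at 2.33 ± 0.16, Edem1 at 1.39 ± 0.18, Dnajc3 at 1.38 ± 0.18, Xbp1 at 1.21 ± 0.15, Sel1l at 1.14 ± 0.14, Derl2 at 0.91 ± 0.24 and Atf4 at 0.86 ± 0.16. These 7 passed in all alternatives. Dnajb9 (0.46, adjusted p = 0.014) and Canx (0.47, adjusted p = 0.0268) passed here and not against naive, and Phgdh fell by 0.72 ± 0.25 (adjusted p = 0.0223), from 8.27 and 8.29 to 7.55 and 7.57. The calls of Dnajb9, Herpud1 and Phgdh ended without any 1 of the 4 arrays (adjusted p from 0.0508 to 0.119), and that of Canx without 3-week replicate 2 or either 6-week array (0.0827 to 0.236). Hspa5, Hsp90b1, Pdia3, Atf6, Chac1 and Derl1 also lost the call without at least 1 array (0.0514 to 0.396). The count was 10 without 3-week replicate 2 (all higher), 12 without 6-week replicate 1 (11 higher and 1 lower), 17 higher (background 26.5%) and 0 lower (12.2%) with centred arrays, and 9 (23.3%) and 3 (21.9%) with joint quantile normalization.

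Grouped by promoter element, 9 genes held the ER stress response element. In Mo at 6 weeks 5 of them rose (background 21.8%) and 0 fell (24.4%). In PMN 2 rose (25.5%) and 1 fell (40.0%), so the PMN rises lay near the share over all genes. The medians were 0.35 in Mo and 0.10 in PMN. The changes ran from -0.03 to 0.63 in Mo and from -0.37 (Hspa5) to 1.28 (Dnajc3) in PMN. Of the 4 genes with the C/EBP-ATF element, Asns rose in both subsets, Herpud1 rose in PMN, Trib3 fell in both and Chac1 fell in PMN. The fall of Hspa5, the only gene with the ER stress response element that fell, did not pass after median centring but passed after joint quantile normalization, as given above. That of Chac1 did not pass after median centring either.

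The wider pathways around the 36 genes were counted from lists of other genes. For the counts of this and the next paragraph without rescaling, the background was 21.8% higher and 24.4% lower in Mo. In PMN it was 25.5% higher and 40.0% lower. For counts with centred arrays it was 29.1% and 6.92% in Mo and 28.9% and 17.6% in PMN. For counts with joint quantile normalization it was 17.5% and 8.80% in Mo and 24.7% and 27.7% in PMN. All 18 measured cytosolic aminoacyl-tRNA synthetases, which charge tRNAs and of which only some are known targets of ATF4, rose in Mo at 6 weeks (median 0.72). Yars was at 1.10 ± 0.17, Gars at 0.98 ± 0.13 and Hars at 0.95 ± 0.12. In PMN 8 of them rose and 0 fell (median 0.29), led by Qars at 1.14 ± 0.13 and Rars at 1.10 ± 0.15. After joint quantile normalization 15 were higher in Mo. Of 23 other targets of the integrated stress response, 4 rose (background 21.8%) and 3 fell (24.4%) in Mo, and 4 rose (25.5%) and 12 fell (40.0%) in PMN. Atf3, a stress-induced factor, fell by 1.38 ± 0.26 in Mo and fell by 1.82 ± 0.28 in PMN, while the amino acid carriers Slc7a5 and Slc1a5 rose in Mo by 0.99 ± 0.14 and 0.75 ± 0.12. After median centring the splits were 6 and 1 in Mo and 5 and 8 in PMN.

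Of 14 other enzymes of amino acid and one-carbon metabolism, 7 rose and 2 fell in Mo (9 and 0 after median centring), and 5 rose and 5 fell in PMN (5 and 2 after median centring). Tyms, which uses folate to make thymidylate, rose in Mo by 1.49 ± 0.21 and Mthfd1 by 1.48 ± 0.19, and the aspartate transaminase gene Got1 rose in PMN by 1.89 ± 0.19. Of 25 other folding and glycan enzymes of the ER, 17 rose and 0 fell in Mo, and 13 rose and 4 fell in PMN. The oxidase gene Ero1a led in both subsets, at 1.46 ± 0.18 and 2.43 ± 0.19. Of 18 genes of the translocon and signal peptidase, 13 rose in each subset, with 0 lower in Mo and 2 in PMN. Of 18 other genes of ER-associated degradation, 13 rose in Mo and 16 in PMN, with 0 lower in both, and Nploc4, a cofactor of the extracting ATPase, was at 0.74 ± 0.15 and 1.54 ± 0.16. After joint quantile normalization the Mo counts were 9 for the translocon and 8 for degradation. Of 14 other sensors and transducers, 6 rose and 1 fell in Mo, and 6 rose and 4 fell in PMN (9 and 0 with centred arrays, 7 and 0 with joint quantiles).

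**Figure D4:**
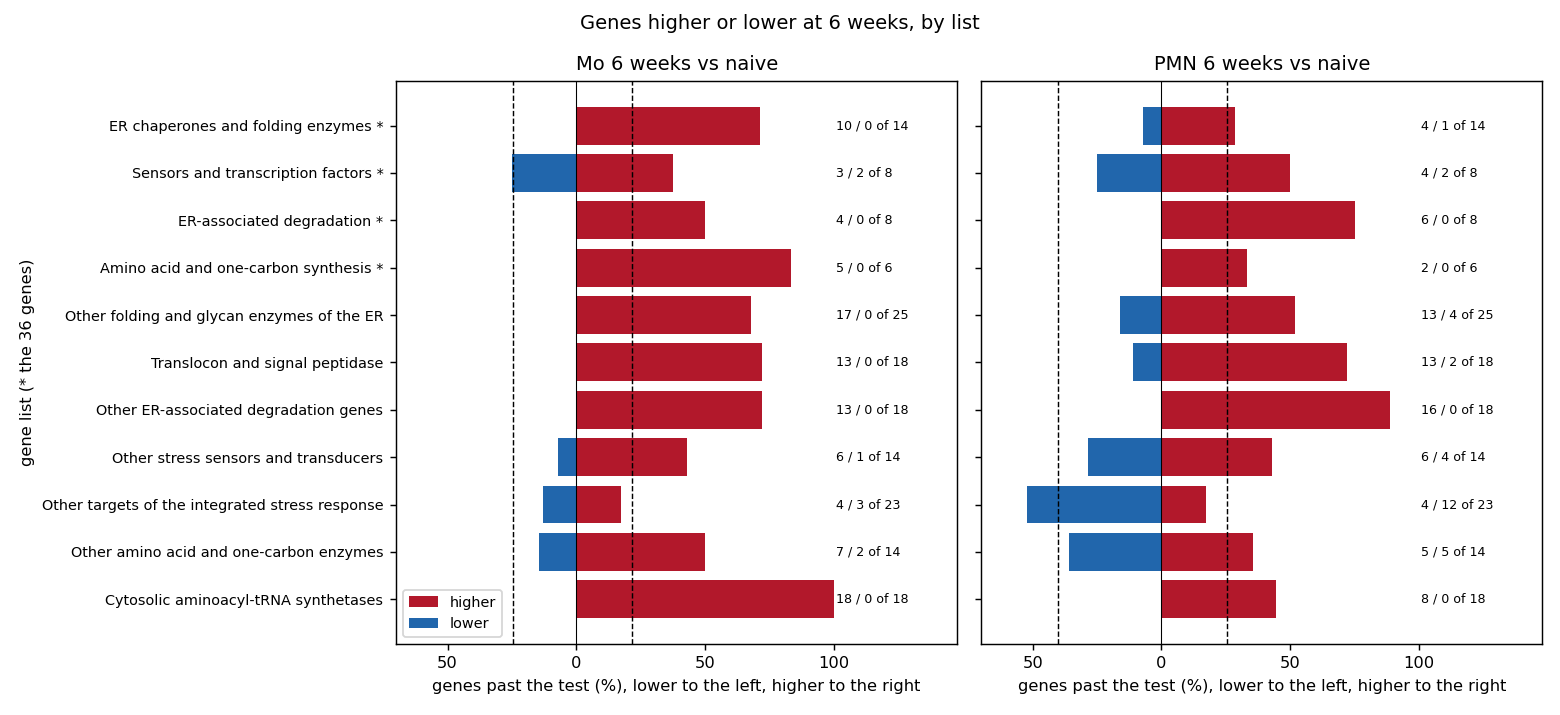
Share of measured genes of 11 lists that were higher (bars to the right) or lower (bars to the left) at 6 weeks than in naive mice in Mo (left panel) and PMN (right panel), with the numbers beside them as higher / lower of measured; an asterisk marks the 4 lists of the 36 genes and dashed lines the share over all genes. All 18 tRNA synthetases are higher in Mo, and 16 of 18 other degradation genes in PMN.

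Genes of other cells and states changed at 6 weeks beside the members. Counts of markers stand against 21.8% of all genes higher and 24.4% lower in Mo, and 25.5% and 40.0% in PMN. The summed intensity of the 15 cell division genes in Mo was 1903, 2113 and 3290 in naive and 12036, 18423 and 23235 at 6 weeks, replicates 1 to 3 in turn. The 6 synthesis enzymes summed to 1178, 1163 and 1153 in naive and to 1864, 2286 and 3069 at 6 weeks, in the same order. In PMN the cell division sum lay between 1618 and 1701 in naive and between 7563 and 9003 at 6 weeks. Granulocyte precursor markers rose too, 8 of 10 in Mo (sum 1056 to 1465 in naive, 7914 to 18998 at 6 weeks) and 7 of 10 in PMN (9356 to 10956, then 25230 to 26490). In Mo, Mpo rose by 4.53 ± 0.27 and Elane by 4.18 ± 0.26. Mature neutrophil markers rose for 4 of 8 in Mo, with Il1r2 at 3.78 ± 0.26 and Mmp8 at 2.78 ± 0.17 (sum 3722 to 3944 in naive, 6378 to 9419 at 6 weeks, replicate 2 the highest), and for 6 of 8 in PMN (17546 to 20582, then 39327 to 41882). One of the 8 fell in each subset. Of 10 monocyte markers 4 rose and 3 fell in Mo, and 4 rose and 3 fell in PMN. In Mo, Cx3cr1 was at -1.64 ± 0.18 and Csf1r at -0.67 ± 0.15, falls that passed in all alternatives. F13a1 rose there by 0.66 ± 0.1 and Klf4 by 0.64 ± 0.18. After joint quantile normalization the Mo split of monocyte markers was 2 higher (background 17.5%) and 3 lower (8.80%). Of 8 erythroid markers 2 rose in Mo, Tfrc by 2.26 ± 0.37 and Rhag by 1.68 ± 0.55. The sum of the 8 erythroid markers in Mo was 1229, 1490 and 952 in naive and 3107, 4695 and 1108 at 6 weeks. In PMN Tfrc rose and Epor fell (sum 867 to 929, then 1211 to 1581). The part of these cells and of division in the changes of the members was not tested.

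Plasma cells, which have a large ER, were checked by 11 markers. Of all genes 24.4% fell in Mo and 40.0% fell in PMN at 6 weeks. Counts of falling markers near these shares do not set a list apart. In Mo 1 rose (Txndc5, itself an ER folding enzyme, by 0.98) and 3 fell, and the summed level was 3161 to 4334 in naive and 3909 to 4420 at 6 weeks. Jchain lay between 9.70 and 10.76 in naive and between 10.05 and 10.53 in 6-week Mo arrays, and Mzb1 between 7.75 and 8.07 and between 7.43 and 7.95. In PMN 0 of the 11 rose and 7 fell (sum 1336 to 1523, then 1004 to 1228). B cell markers fell in PMN for 11 of 11 (sum 3259 to 3721, then 1315 to 1383) and in Mo for 7 of 11 (1207 to 2154, then 842 to 1147), where 4 named by the largest change (Ms4a1, Cr2, Pax5 and Blk) did not pass in several settings, such as without naive replicate 1 (adjusted p from 0.101 to 0.316). Conventional dendritic cell markers fell for 6 of 8 in Mo (sum 1520 to 1714, then 1003 to 1383), where Flt3 rose, and for 5 of 8 in PMN (1372 to 1543, then 878 to 1000), where 1 rose. Plasmacytoid dendritic cell markers fell for 3 of 6 in Mo (1 with centred arrays) and 5 of 6 in PMN (3 with centred arrays). T and NK cell markers fell for 8 of 11 in Mo and 7 of 11 in PMN, where Cd3d rose. Immediate early genes, a group that responds to the handling of cells, fell for 5 of 11 in Mo and 6 of 11 in PMN, where 1 rose. Fosb was at -1.38 in Mo and -2.22 in PMN. After median centring the background was 6.92% lower in Mo and 17.6% lower in PMN. In Mo 1 B cell marker and 3 immediate early genes were then lower. So were 3 plasma cell, 8 T and NK cell and 4 conventional dendritic cell markers. In PMN 2 plasma cell, 10 B cell, 4 T and NK cell, 4 conventional dendritic cell and 3 immediate early genes were lower. The part of these cells and of handling in the changes of the members was not tested.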

How the data were processed

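The deposited values are intensities that the authors made with RMA, per the submitters' processing notes, which give no version or setting. They lie between 9.755 and 32095 and were read as linear values and put on the log2 scale. Distinct values shared by 2 arrays had a median of 942.5 in Mo, 251 in PMN and 146 across subsets, so the subsets were treated as normalized apart and their levels were not compared. Of 35557 features, 21789 carried 1 gene symbol; the brightest feature of each gene was used (19938 genes). limma 3.58.1 (R 4.3.3) fitted 1 mean per group over the 17 arrays, with eBayes moderation (two-sided, Benjamini-Hochberg per comparison), and all p-values are from this fit. The method was tested on simulated data. Alternatives were median centring, joint quantile normalization, each subset fitted alone, array weights, values under 64 raised to 64 (the floor), dim genes left out, the mean of a gene's features, the replicate number as a block, and each array left out (a stage left with 1 array takes its spread from the other groups). The members and lists were chosen with earlier results of these data known. Members were all free to be named; of other lists, up to 4 genes with the largest change past the test in Mo at 6 weeks and up to 2 in PMN. The number of arrays limits the precision.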

Additional observations from a re-analysis of the deposited data

Results flagged for a closer look

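The change from naive to 6 weeks differed between Mo and PMN cells, by limma's test of the difference, for 12 of the 36 genes. Given as Mo minus PMN (log2), it was 1.66 for Psat1, 1.54 for Shmt2, 1.10 for Sdf2l1, 0.75 for Aldh18a1 and 0.68 for Pdia4. It was -0.94 for Asns (-0.63 with the dim naive PMN level raised to 7.06), -0.82 for Dnajc3, -0.76 for Edem1, -0.73 for Atf6, -0.70 for Xbp1, -0.53 for Sel1l and -0.47 for Herpud1.

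Single naive PMN arrays stood apart from the other 3 at 2 genes. Replicate 2 was high for Dnajb9 (8.48), and replicate 4 was low for Edem2 (7.58). Chance flags about 1 in 20 groups, and the naive PMN group was tested at all 36 genes.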

How the results depend on the processing

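For Mo at 3 weeks against naive, 2 members passed (6.03% of all genes). After joint quantile normalization 1 did (1.78%), with Mo fitted alone 0 (0.010%) and with the floor 0 (0.577%). With dim genes left out 4 passed, against 19.2% of the 9969 genes kept. Array weights gave 29 (25 higher and 4 lower), against 76.1% of all genes, and the replicate block 9, against 26.6%. The range with single arrays left out was 0 to 17, and 44.7% of all genes passed in the fit that gave 17. Between 3 and 6 weeks in Mo (5 members), 13 passed with array weights (39.2% of all genes) and 9 with the replicate block (11.9%), and 3 to 8 with single arrays left out. The same ranges were 13 to 23 for Mo at 6 weeks against naive (24 members), 15 to 21 for PMN at 6 weeks against naive (19), 10 to 15 for PMN at 6 against 3 weeks (19), 0 to 0 for PMN at 3 weeks and 6 to 14 for the difference between the subsets (12). In PMN between 3 and 6 weeks 12 passed after joint quantile normalization (45.2% of all genes). The difference between the subsets gave 5 after median centring (11.3% of all genes) and 22 with array weights (34.3%). The estimate of the array weights stopped before it converged. The changes of Eif2ak3 and Herpud1 in PMN at 6 weeks turned to -0.082 (adjusted p = 0.55) and -0.093 (adjusted p = 0.394) after joint quantile normalization. The cause of these shifts was not tested.

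Same-numbered Mo arrays had correlated deviations from their group means (9 pairs, -0.09 to 0.63, median 0.47, 7 over 0.1). For different numbers the Mo median was -0.30. Same-numbered PMN arrays had no such correlation (6 pairs, -0.46 to 0.02). In a PMN group of 2 arrays the deviations mirror each other, so these pairs are not independent and say little about pairing. The main fit did not pair arrays by number, and whether same-numbered Mo arrays belong together was not tested. At 3 weeks the block added 7 Mo calls, all higher: Aldh18a1 (adjusted p = 0.00827), Edem1 (0.00935), Sdf2l1 (0.0185), Eif2ak3 (0.0201), Sel1l (0.0248), Asns (0.0479) and Dnajb11 (0.0493). With the replicate block 24 members passed in Mo (54.4% of all genes) and 16 in PMN (60.5%) at 6 weeks. The block ended the PMN calls of Hsp90b1 (0.0658), Eif2ak3 (0.105) and Herpud1 (0.0886) and the difference of Herpud1 (0.103). Of 1155 alternative values of called members, 975 stayed on their side of the threshold in the same direction, 178 lost the call and 2 reversed. Signal limits genes whose mean lay below the 95th percentile of receptor genes (6.80 in Mo, 7.06 in PMN). In Mo these were Ddit3 and Trib3, both at 3 and 6 weeks. In PMN they were Ddit3, Psat1 and Shmt2 at every stage, Asns and Atf4 in naive and at 3 weeks, Mthfd2 in naive, Aldh18a1 in naive and at 6 weeks, Trib3 at 3 and 6 weeks, and Chac1 and Derl3 at 6 weeks.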
